A study of Mus musculus with 36 samples.

Results

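The kidney cortex of diabetic mice was compared with that of nondiabetic mice when both had received lipoxin A4 (LXA4), a lipid mediator made from arachidonic acid. The comparison takes 6 diabetic LXA4 libraries and 6 nondiabetic LXA4 libraries, 12 of the 36 in the series, picked by their group labels and by no measured value. All mice were male, lacked apolipoprotein E (ApoE-/-) and were of the C57BL/6 strain. In the diabetic LXA4 group, diabetes was induced from 6 weeks of age with 5 daily injections of streptozotocin at 55 mg/kg. Streptozotocin is a glucose analogue that alkylates DNA and destroys the beta cells of the pancreas, so the model is one of insulin loss. The nondiabetic LXA4 group had the same genotype and no streptozotocin is stated for it. LXA4 was injected at 5 ug/kg, 2 times a week, between weeks 10 and 16 of a 16 week follow-up. The other 2 pairs of groups, 6 libraries each, were used only for contrast: diabetic and nondiabetic mice given benzo-LXA4 (1.7 ug/kg), a synthetic analogue with a benzo-fused ring, and diabetic and nondiabetic mice given the vehicle (0.1% ethanol). The labels do not say that each library came from its own mouse, so the p-values measure the spread between these libraries. Neither the hour at which tissue was taken nor a blood glucose value per library is given in the sources used here.

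Lipoxins are made when lipoxygenases of neighbouring cells act on the same fatty acid in turn, and they signal largely through the receptor FPR2 to limit the influx of neutrophils and promote resolution of inflammation. In the diabetic kidney, filtration of glucose raises the reabsorptive load on the proximal tubule, and over time the glomerulus and the interstitium gain matrix. The early growth response gene Egr1, named in the series title, encodes a zinc finger transcription factor that is induced within minutes of many stimuli and is held in check by the corepressors Nab1 and Nab2. The study's question was whether lipoxins alter this programme. The comparison below asks how diabetic and nondiabetic kidneys differed when both had received LXA4, which was given after diabetes had been induced.

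Levels are given as CPM, the deposited counts divided by library size after the sizes were scaled with edgeR's trimmed mean of M-values. A log2 difference is that of diabetic LXA4 over nondiabetic LXA4 kidneys from edgeR's quasi-likelihood fit, and a gene passed when its Benjamini-Hochberg adjusted p over all 15726 genes tested was under 0.05. Sets of 3 levels are the lowest, the median and the highest of the 6 libraries of a group.

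One library stood apart. Diabetic LXA4 replicate 6 had 8896193 counted reads, against 23467917 to 43305005 in the other 11 LXA4 libraries, and 56.9% of them fell on structural RNA genes, against 1.94% to 6.81%. It listed 884 of the 15730 genes of the count table at 0, against 2 to 37, and its mitochondrial ribosomal RNA was at 0.394% of reads, against 8.15% to 12.5%. The first principal component of the 12 libraries, with 56% of the variance, set this library against the rest. Every result below was therefore repeated without it. Diabetic LXA4 replicate 5 stood apart in another way. The summed level of the measured urothelium and inner medulla markers was 137.9 CPM there, against 13.04 to 36.8 CPM in the other diabetic LXA4 libraries and 3.40 to 36.8 CPM in nondiabetic LXA4 libraries, and the summed interferon response genes reached 790.6 CPM, against 336.5 to 430.4 CPM in the other diabetic LXA4 libraries and 323.0 to 379.0 CPM in nondiabetic LXA4 libraries. Results that rest on replicate 5 are given with and without it.

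The tissue label held. Proximal tubule markers summed to 24568, 33458 and 37867 CPM in diabetic LXA4 kidneys, against 45786, 49239 and 52812 CPM in nondiabetic LXA4 kidneys, and all 33 on the list were measured. Only 1 of 8 adrenal markers was measured, the steroidogenic protein Star, at 1.44, 1.79 and 2.09 CPM, against 1.08, 1.35 and 1.60 CPM. Apoe itself was low in both groups, at 2.31, 2.62 and 3.07 CPM in diabetic LXA4 kidneys, against 1.82, 2.41 and 2.82 CPM in nondiabetic LXA4 kidneys. The groups overlapped and the log2 difference was 0.18 (SE 0.17, adjusted p = 0.447).

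Diabetes changed a large part of the cortex transcriptome under LXA4. Of 15726 genes tested, 4353 passed (27.7%), 2415 higher in diabetic LXA4 kidneys (15.4% of genes tested) and 1938 lower (12.3%). Without diabetic replicate 6 the count was 4827 (30.7%), 2518 higher (16%) and 2309 lower (14.7%), and 3663 genes passed in both fits, all in the same direction. Without both diabetic replicates 5 and 6 it was 3783 (24.1%), and 2918 genes passed in all 3 fits. At an unadjusted p under 0.05 there were 6375 genes (40.5%), and 6677 (42.5%) without diabetic replicate 6. In 1895 genes (12.1%) the 6 diabetic LXA4 libraries did not overlap the 6 nondiabetic LXA4 libraries at all, 766 of them higher (4.87%) and 1129 lower (7.18%). The median log2 difference over all genes was 0.05 and the middle 50% of genes lay between -0.17 and 0.32. The count was sensitive to the fit. It was 2338 when the 2 LXA4 groups were fitted alone, 5890 in that fit without diabetic replicate 6, and 2272 (1105 higher, 1167 lower) with library totals in place of the trimmed mean scaling.

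The lipoxin and Egr1 genes that motivated the series did not pass. Egr1 was at 1.65, 2.57 and 3.71 CPM in diabetic LXA4 kidneys, against 1.38, 3.16 and 6.47 CPM in nondiabetic LXA4 kidneys, and every diabetic library lay within the nondiabetic range. Its log2 difference was -0.35 (SE 0.30, 95% interval -0.95 to 0.25, adjusted p = 0.391). In vehicle kidneys it averaged 7.57 ± 0.930 CPM in diabetic mice and 3.58 ± 2.09 CPM in nondiabetic mice (SD, n = 6 each), and the same contrast gave 1.04 (adjusted p = 0.0259, and 0.90 with an adjusted p of 0.0606 without nondiabetic vehicle replicate 3). The difference between the 2 contrasts was -1.39 (SE 0.41), which missed the threshold over all genes (adjusted p = 0.121). Nab1 and Nab2, its corepressors, had log2 differences of -0.14 (adjusted p = 0.31) and -0.02 (adjusted p = 0.943). Alox5, the 5-lipoxygenase that starts leukotriene and lipoxin synthesis, was at 0, 0.460 and 0.650 CPM in diabetic LXA4 kidneys, against 0.215, 0.306 and 0.571 CPM in nondiabetic LXA4 kidneys (log2 difference 0.35, adjusted p = 0.45). Fpr2 and Alox15 are not among the genes of the count table. Of 24 immediate early genes measured, 3 rose and none fell, with a median log2 difference of 0.14. The share of rises was below the 15.4% of all genes. Btg2, an antiproliferative gene that also belongs to the p53 list, was the one with the lowest p (0.69, adjusted p = 0.000431).

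Some enzymes of the eicosanoid pathway passed. Of 23 lipoxin and eicosanoid genes measured, 5 rose and 3 fell, beside 15.4% and 12.3% of all genes. Ltc4s, which couples leukotriene A4 to glutathione, was at 5.09, 7.90 and 14.9 CPM in diabetic LXA4 kidneys, against 1.72, 2.62 and 3.51 CPM in nondiabetic LXA4 kidneys. The groups were clear of each other, and the log2 difference was 1.64 (SE 0.22, adjusted p = 5.04e-06). Ptgis, the prostacyclin synthase, rose by 0.85 on the log2 scale (adjusted p = 0.00141), Ptgs1, cyclooxygenase 1, by 0.44 (adjusted p = 0.00378), and Alox12, a 12-lipoxygenase, by 0.80 (adjusted p = 0.00505). Ephx2, the soluble epoxide hydrolase that breaks down epoxy fatty acids, fell (-0.43, adjusted p = 0.0149), as did Ptges3, a cochaperone that also acts as a prostaglandin E synthase (-0.39, adjusted p = 0.00799).

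The p53 programme held several of the rises with the lowest p. Of 30 p53 targets measured, 18 rose and 1 fell, with a median log2 difference of 0.62, beside 0.05 for all genes. Of all genes 15.4% rose and 12.3% fell. Without diabetic replicate 6, 21 rose and 1 fell. Cdkn1a, the cell cycle inhibitor p21 (chr17:29090976-29100727, GRCm38), was at 27.6, 39.1 and 50.6 CPM in diabetic LXA4 kidneys, against 2.55, 6.67 and 8.19 CPM in nondiabetic LXA4 kidneys. The groups did not overlap, and the log2 difference was 2.63 (SE 0.24, adjusted p = 4.25e-09). Trp53cor1, the long noncoding RNA lincRNA-p21 that lies beside Cdkn1a (chr17:29057430-29079179), was at 3.07, 6.53 and 8.24 CPM, against 0.276, 0.628 and 0.898 CPM, a log2 difference of 3.42 (SE 0.23, adjusted p = 2.00e-12). Those groups did not overlap either.

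Eda2r, a tumour necrosis factor receptor family member induced by p53 (chrX:97333840-97377216), was at 0.945, 9.75 and 11.7 CPM in diabetic LXA4 kidneys, against 0.531, 0.778 and 1.11 CPM in nondiabetic LXA4 kidneys. The low value was that of diabetic replicate 6, at 0.945 CPM. The other 5 diabetic libraries were at 8.85 CPM or above. The log2 difference was 3.42 (adjusted p = 2.97e-11) and 3.61 without that library (adjusted p = 1.34e-17). In Phlda3, a p53-induced inhibitor of Akt signalling, the same library was the high one, at 51.9 CPM, against 6.47 to 11.3 CPM in the other diabetic LXA4 libraries and 1.41, 2.01 and 2.79 CPM in nondiabetic LXA4 kidneys. Its log2 difference was 2.84 with this library and 2.11 without it (adjusted p = 0.000113).

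Psrc1, a microtubule-associated gene of the spindle, was at 1.12, 1.69 and 2.60 CPM in diabetic LXA4 kidneys, against 0.0456, 0.168 and 0.360 CPM in nondiabetic LXA4 kidneys (3.25, adjusted p = 8.53e-09). Zmat3, an RNA-binding zinc finger gene, was at 43.4, 71.5 and 75.6 CPM, against 34.0, 36.9 and 43.2 CPM (0.78, adjusted p = 8.81e-07), with no overlap. Replicates 5 and 6 were its lowest diabetic libraries. Gdf15, a stress hormone of the TGF-beta superfamily, was at 6.03, 7.92 and 15.2 CPM, against 2.30, 3.13 and 4.25 CPM (1.55, adjusted p = 2.40e-05). Mdm2, the ubiquitin ligase that degrades p53, rose by 0.54 (adjusted p = 1.75e-06), Ephx1, the microsomal epoxide hydrolase, by 1.70 (adjusted p = 4.80e-07), and the proapoptotic Bbc3 by 1.22 (adjusted p = 0.0045). Not all targets moved. Bax (0.30, adjusted p = 0.294), Sesn2 (0.09, adjusted p = 0.777) and Rrm2b (-0.07, adjusted p = 0.7) did not pass, and Perp, a desmosomal membrane protein gene, fell (-0.41, adjusted p = 0.00114). Under vehicle 16 and under benzo-LXA4 14 of the 30 rose, and no p53 target passed the test of the difference between LXA4 and vehicle.

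Among the leading genes outside the p53 list, Dscaml1, an immunoglobulin superfamily adhesion gene (chr9:45426628-45753712), was at 29.7, 52.2 and 88.3 CPM in diabetic LXA4 kidneys, against 3.40, 5.25 and 6.88 CPM in nondiabetic LXA4 kidneys (3.39, SE 0.25, adjusted p = 2.97e-11). Ano3, of the anoctamin family of channels and scramblases, was at 2.42, 2.91 and 4.25 CPM, against 0.163, 0.218 and 0.511 CPM (3.45, SE 0.33, adjusted p = 9.31e-09). Fam212b was at 3.99, 5.01 and 5.73 CPM, against 0.295, 0.622 and 1.05 CPM (2.88, SE 0.27, adjusted p = 5.50e-09). None of these 3 overlapped between groups, and each was also higher under vehicle (log2 differences 2.95, 4.11 and 2.76).

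**Figure D1:**
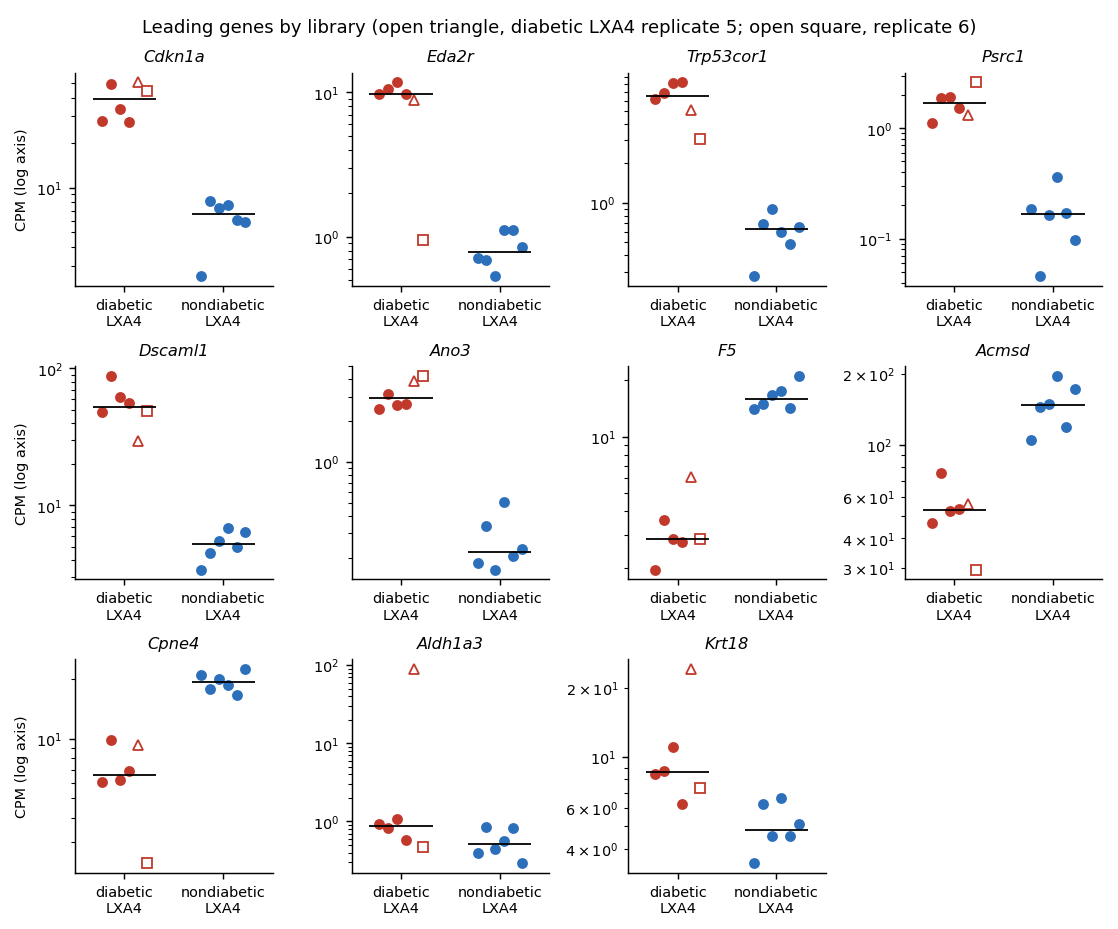
Level of 11 genes in each LXA4 library, in CPM on a log axis, with diabetic LXA4 at the left of each panel and nondiabetic LXA4 at the right. Each point is a library, bars are group medians, the open triangle is diabetic replicate 5 and the open square is diabetic replicate 6. Cdkn1a, Trp53cor1, Dscaml1, Ano3, F5 and Acmsd separate the groups in every library, Eda2r does so without replicate 6, and Aldh1a3 is high in replicate 5 alone.

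The other 7 leading rises had their highest level in diabetic replicate 5. Aldh1a3, a retinaldehyde dehydrogenase, was at 89.0 CPM in that library, against 0.472 to 1.09 CPM in the other 5 diabetic LXA4 libraries and 0.295, 0.510 and 0.844 CPM in nondiabetic LXA4 kidneys. Its log2 difference of 4.80 (adjusted p = 0.00658) became 0.58 without replicates 5 and 6 (adjusted p = 0.743). Sptssb, a subunit of serine palmitoyltransferase, Rasal1, a Ras GTPase-activating gene, the mucin-like Fcgbp, the gasdermin Gsdmc3, the surface antigen Psca and the cornified envelope gene Sprr1a had log2 differences of 3.80, 3.54, 3.33, 3.32, 3.30 and 3.10, and none of them passed without replicates 5 and 6 (adjusted p from 0.0674 to 0.424). Psca was at 14.8 CPM in replicate 5 and at 0, 0.0517 and 1.62 CPM in nondiabetic LXA4 kidneys. Of 9 urothelium and inner medulla markers 4 rose, among them the uroplakins Upk3b (2.63, adjusted p = 0.0263) and Upk1a (1.70, adjusted p = 0.0439), with a list median of 2.63. Without replicates 5 and 6 none of the 9 passed and the median was 1.48. Under vehicle that median was -1.05. Krt18, a simple epithelial keratin on the injury list, was likewise highest in replicate 5, at 24.1 CPM, against 6.28 to 11.0 CPM in the other diabetic LXA4 libraries and 3.47, 4.84 and 6.64 CPM in nondiabetic LXA4 kidneys (1.13, adjusted p = 0.00768, and 0.0636 without replicates 5 and 6). The part of urothelium or inner medulla tissue in these results was not tested.

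The leading falls were shared by all diabetic libraries more often. F5, coagulation factor V (chr1:164151838-164220277), was at 1.95, 2.83 and 6.07 CPM in diabetic LXA4 kidneys, against 14.0, 15.8 and 21.1 CPM in nondiabetic LXA4 kidneys (-2.26, SE 0.37, adjusted p = 9.47e-05). Cpne4, a calcium-dependent phospholipid-binding copine, was at 2.36, 6.53 and 9.92 CPM, against 16.7, 19.4 and 22.5 CPM (-1.45, SE 0.23, adjusted p = 7.10e-05). The 2 groups did not overlap in either gene, and each was also lower under vehicle and under benzo-LXA4. Ankrd34b (-2.31, adjusted p = 0.00014), the epithelial polarity gene Crb1 (-1.82, adjusted p = 0.000203) and Apoh, which encodes beta-2-glycoprotein I (-1.48, adjusted p = 0.00258), fell without overlap, whereas Tm4sf4 fell with overlap (-1.86, adjusted p = 0.000682). Car3, a carbonic anhydrase abundant in fat and muscle, was at 3.21, 4.46 and 22.0 CPM, against 13.4, 44.2 and 54.7 CPM, with overlapping groups (-2.11, adjusted p = 0.00951). It is on the adipose marker list, of which the summed level was 9.45, 17.3 and 74.1 CPM in diabetic LXA4 kidneys and 31.5, 63.7 and 117 CPM in nondiabetic LXA4 kidneys. Of the 9 adipose markers measured no other passed, and the part of adherent fat was not tested. Ugt2b34 (-1.47), Cyp4a12a (-1.44) and Cyp2d12 (-1.43) completed the leading falls. They belong to detoxification gene families with near-identical copies, between which the counting may have split reads.

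Cell cycle genes rose as well. Of 30 measured, 9 rose and none fell, with a median of 0.43, beside 15.4% higher and 12.3% lower of all genes. Ccnd1, cyclin D1, which drives entry into the cycle, was at 159, 189 and 219.6 CPM in diabetic LXA4 kidneys, against 84.8, 97.8 and 119 CPM in nondiabetic LXA4 kidneys (0.90, SE 0.14, adjusted p = 6.38e-05). Cdk1, the mitotic kinase, was at 0.816, 1.16 and 1.89 CPM, against 0.393, 0.635 and 0.776 CPM (0.88, adjusted p = 0.00985), and Mki67, the proliferation marker, at 5.17, 6.29 and 8.27 CPM, against 2.58, 3.51 and 4.57 CPM (0.90, adjusted p = 0.0189). No diabetic library fell into the nondiabetic range in these 3 genes, although Cdk1 and Mki67 were low genes. Ccnd3 (0.64), the ribonucleotide reductase subunit Rrm2 (0.73) and the replication helicase subunit Mcm5 (0.45) also rose. Pcna (-0.16, adjusted p = 0.388) and Top2a (0.39, adjusted p = 0.346) did not pass. Under vehicle 9 cell cycle genes rose too, and under benzo-LXA4 17.

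The promoter of Cdk1 is printed because it carries both elements named for mitotic genes, the cell cycle homology region (TTTGAA) and the CCAAT box. It is the RefSeq window from 250 bases before to 50 bases after the start, on the minus strand of chr10:69352863-69353162 (GRCm38.p6), with matches on either strand in capitals. It was chosen after the values were seen, since the window of Ccnd3 has no TTTGAA. Ccnd1 is not among the windows of the table used.
Cdk1: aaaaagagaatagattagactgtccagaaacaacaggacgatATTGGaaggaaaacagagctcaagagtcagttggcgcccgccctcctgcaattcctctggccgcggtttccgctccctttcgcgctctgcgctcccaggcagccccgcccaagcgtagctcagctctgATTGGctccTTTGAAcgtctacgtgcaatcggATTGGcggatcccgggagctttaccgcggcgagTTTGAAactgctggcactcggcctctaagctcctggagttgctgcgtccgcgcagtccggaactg
TTTGAA lies in 9 of the 23 cell cycle genes with a window, of which 4 rose, against 17.9% of all 32851 windows. CCAAT lies in 19 of the 23, of which 7 rose, against 37.4% of all windows. Here and below, a gene was counted if any of its windows matched. The share of all windows counts single windows, so these shares are not in the same unit. A match is a run of letters and not a mapped binding site.

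Some matrix, injury and smooth muscle genes were higher in diabetic LXA4 kidneys, and several collagen calls were lost without diabetic replicate 6. Of 41 extracellular matrix genes measured 12 rose and 2 fell (median 0.36), beside 15.4% and 12.3% of all genes. Without diabetic replicate 6, 10 rose (median 0.23), beside 16% of all genes. Mmp2, a gelatinase, was at 2.31, 3.55 and 4.96 CPM in diabetic LXA4 kidneys, against 1.56, 1.93 and 2.33 CPM in nondiabetic LXA4 kidneys (0.84, adjusted p = 0.00528). The groups overlapped by 1 library. The fibrillar collagens Col1a1 (1.93), Col3a1 (1.23) and Col5a1 (0.76) passed with all libraries and not without replicate 6, when they were at 0.21, -0.05 and 0.15 (adjusted p from 0.469 to 0.904). The call of Col1a2 (adjusted p = 0.0136) was lost too (0.18, adjusted p = 0.606). Elastin (Eln) and Col6a1 were at 50.5 and 60.7 CPM in replicate 6. Their log2 differences of 1.35 and 1.01 became 0.63 (adjusted p = 0.0359) and 0.41 (adjusted p = 0.0431) without it. Timp3, an inhibitor of metalloproteases that is abundant in this tissue, fell to 573, 1241 and 1569 CPM in diabetic LXA4 kidneys, against 1729.7, 1966 and 2497 CPM in nondiabetic LXA4 kidneys (-0.77, adjusted p = 0.00213), and so did the short-chain collagen Col8a1 (-1.26, adjusted p = 0.00782).

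Of 24 tubular injury genes 6 rose and none fell (median 0.38), beside 15.4% and 12.3% of all genes. Without diabetic replicate 6, 9 rose, and without replicates 5 and 6, 6 rose. Apart from Gdf15 the rises with all libraries included Vim, the intermediate filament vimentin (0.46, adjusted p = 0.0172), and Anxa3, an annexin (0.83, adjusted p = 0.00295). Lcn2, the iron-siderophore carrier NGAL, rose too (2.02, adjusted p = 0.0133), and its call was lost without diabetic replicate 5. Lcn2, Krt18 and the keratin Krt19 did not pass without replicates 5 and 6 (adjusted p = 0.0511, 0.0636 and 0.2). Havcr1 (adjusted p = 0.139), Sox9 (adjusted p = 0.345) and Cd44 (adjusted p = 0.624) passed in none of these fits. Myh11, the smooth muscle myosin heavy chain, was at 16.6, 22.3 and 37.1 CPM in diabetic LXA4 kidneys, against 7.55, 8.64 and 11.0 CPM in nondiabetic LXA4 kidneys. That rise (1.44, SE 0.22, adjusted p = 3.73e-05) was free of overlap, yet Acta2 (0.49, adjusted p = 0.138) and Tagln (-0.19, adjusted p = 0.559), defining genes of the same cells, did not pass. Of 14 smooth muscle, pericyte and juxtaglomerular markers 5 rose. In the glomerulus, 4 of 17 podocyte markers rose and none fell, beside 15.4% and 12.3% of all genes. Without diabetic replicate 6, 3 of the 17 rose, a share near the 16% of all genes. Among the rises with all libraries were the slit diaphragm gene Nphs1 (0.54, adjusted p = 0.0122), the phospholipase Plce1 (0.51, adjusted p = 0.00204) and the nephrin-related Kirrel (0.47, adjusted p = 0.00211). Vwf, the endothelial clotting glycoprotein, was at 4.68, 7.88 and 17.9 CPM, against 1.24, 2.09 and 4.36 CPM (1.82, adjusted p = 0.0028). Its highest level was in replicate 5, and without replicates 5 and 6 it still passed (1.46, adjusted p = 0.0191). Esm1, an endothelial proteoglycan made in response to VEGF, fell (-1.22, adjusted p = 0.00282), and the 20 endothelial markers had a median of 0.10.

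The TGF-beta and BMP pathway was represented at several levels. Of 28 genes measured 10 rose and 1 fell (median 0.34), beside 15.4% and 12.3% of all genes. Without diabetic replicate 6, 6 rose and 1 fell (median 0.20), beside 16% and 14.7% of all genes. Of the ligands Tgfb2 rose (0.54, adjusted p = 0.00873), and of the transducers Smad3 (0.36, adjusted p = 0.00585). Of the receptors the coreceptor Tgfbr3 (0.56, adjusted p = 0.0141) and, slightly, Tgfbr2 (0.14, adjusted p = 0.0468) rose. Tgfbr2 did not pass without replicate 6 (adjusted p = 0.066), and Tgfbr3 did not without replicates 5 and 6 (adjusted p = 0.144). The inhibitory Smad6 (0.74, adjusted p = 0.004) and the ubiquitin ligase Smurf1, which degrades BMP Smads (0.51, SE 0.08, adjusted p = 5.27e-05), rose as well. Grem1, a secreted BMP antagonist, was at 0, 0.799 and 1.71 CPM in diabetic LXA4 kidneys, against 0.0689, 0.206 and 0.330 CPM in nondiabetic LXA4 kidneys. It was not counted at all in replicate 6, and the other 5 diabetic libraries lay above the nondiabetic ones (2.38 without replicate 6, adjusted p = 0.0072). Under vehicle 1 gene of this list rose and under benzo-LXA4 1, and no member passed the test of the difference between LXA4 and vehicle.

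Of the inflammatory lists the interferon genes had the most calls. Of 21 cytokines and NF-kB targets 2 rose and 1 fell, and without diabetic replicate 6, 7 rose and 1 fell, the chemokine Cxcl12 (0.58, adjusted p = 0.00713) and the adhesion molecule Vcam1 (0.61, adjusted p = 0.00546) among the rises. Of 25 myeloid markers 2 rose, and of 7 lymphoid markers 1 rose. With all libraries 15.4% of all genes rose and 12.3% fell, and the cytokine, myeloid and lymphoid shares of rises were below that 15.4%. Without diabetic replicate 6, 16% of all genes rose and 14.7% fell. Summed myeloid markers were at 315, 379 and 555 CPM in diabetic LXA4 kidneys and 331, 381 and 402 CPM in nondiabetic LXA4 kidneys. Cxcl10, a chemokine induced by interferon, was at 1.42, 2.85 and 4.01 CPM, against 1.02, 1.36 and 2.20 CPM (0.98, adjusted p = 0.00334), with the lowest diabetic value in replicate 6. Il1b, the inflammasome cytokine, was at or below 1.5 CPM in every library and fell (-1.21, adjusted p = 0.0361, and 0.0966 without replicates 5 and 6). Of 32 interferon response genes 16 rose and none fell (median 0.54). Without diabetic replicates 5 and 6, 7 rose (median 0.25), beside 11.7% of all genes. Irf7, the interferon regulatory factor that amplifies the response, was at 44.0 CPM in replicate 5, against 4.72 to 12.2 CPM in the other diabetic LXA4 libraries and 5.36, 7.24 and 7.72 CPM in nondiabetic LXA4 kidneys (adjusted p = 0.00734, and 0.0514 without replicates 5 and 6). Tap1, the peptide transporter of antigen presentation (0.65, adjusted p = 0.000709), Stat2 (0.35, adjusted p = 0.0227) and Cxcl10 (1.08, adjusted p = 0.00272) passed without those libraries.

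Of 38 complement and coagulation genes 6 rose and 2 fell, shares near or below those of all genes (15.4% and 12.3%). C4b, complement component 4, was at 4.01, 15.3 and 32.6 CPM in diabetic LXA4 kidneys, against 4.84, 5.60 and 6.34 CPM in nondiabetic LXA4 kidneys, and the lowest diabetic value was again that of replicate 6. Its log2 difference was 1.54 (adjusted p = 0.0018) and 1.70 without that library (adjusted p = 0.000348). The lectin pathway protease Masp1 (1.32, adjusted p = 0.0103), the C3b-cleaving Cfi (1.06, adjusted p = 0.0133) and the thrombin inhibitor Serpine2 (1.12, adjusted p = 6.29e-06) rose. Serpinf2, the plasmin inhibitor, fell beside F5 (-1.04, adjusted p = 0.000327). In the renin-angiotensin and kinin system 1 of 19 genes rose and 4 fell. Bdkrb2, the bradykinin B2 receptor, rose (1.19, adjusted p = 0.00118) and Ace, the angiotensin-converting enzyme of the proximal tubule brush border, fell to 71.5, 104 and 124 CPM in diabetic LXA4 kidneys, against 147, 176 and 235 CPM in nondiabetic LXA4 kidneys (-0.86, adjusted p = 0.000789).

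More clock genes rose than fell in diabetic LXA4 kidneys. The core clock is a loop in which Clock and Arntl (Bmal1) activate Per and Cry genes through E-boxes and their products then repress Clock and Arntl, while nuclear receptors such as Rev-erb alpha act on Arntl. Of 19 clock genes measured 12 rose and 1 fell (median 0.40), against none in either direction under vehicle (median -0.01). Per1 was at 51.9, 62.5 and 67.5 CPM in diabetic LXA4 kidneys, against 20.3, 30.7 and 40.4 CPM in nondiabetic LXA4 kidneys (1.00, SE 0.24, adjusted p = 0.00316). Cry2 was at 26.2, 38.8 and 47.3 CPM, against 18.5, 20.2 and 23.7 CPM (0.87, SE 0.15, adjusted p = 0.000161). Neither gene overlapped between groups.

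Per2 was at 41.8, 105 and 134 CPM in diabetic LXA4 kidneys, against 30.7, 51.2 and 56.4 CPM in nondiabetic LXA4 kidneys (1.00, adjusted p = 0.00422), and Cry1 was at 4.72, 10.2 and 15.0 CPM, against 3.50, 4.35 and 5.71 CPM (1.17, adjusted p = 0.0035). In both genes the overlap came from replicate 6 alone. Ciart, a repressor of Clock and Arntl, was at 1.08, 7.03 and 10.0 CPM, against 0.570, 1.62 and 4.82 CPM (1.55, adjusted p = 0.0173), and the output factor Dbp at 6.37, 64.8 and 82.7 CPM, against 10.6, 18.7 and 53.8 CPM (1.17, adjusted p = 0.0262). Both overlapped widely. Diabetic replicate 5 ran against its group, with Dbp at 6.37 CPM and Ciart at 1.08 CPM, its lowest diabetic levels.

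Arntl, which peaks in antiphase to the Per genes, was at 5.29, 13.7 and 80.7 CPM in diabetic LXA4 kidneys, against 16.5, 39.7 and 56.9 CPM in nondiabetic LXA4 kidneys. The highest value of all 12 libraries was that of diabetic replicate 5, at 80.7 CPM, and the other 5 diabetic libraries were at 5.29 to 22.4 CPM. With all libraries it did not pass (-0.68, adjusted p = 0.251), and without replicates 5 and 6 it did (-1.96, adjusted p = 0.000736). Nr1d1, which encodes Rev-erb alpha, did not pass (-0.17, adjusted p = 0.466). Per2 also passed the test of the difference between LXA4 and vehicle, by 1.54 (SE 0.35, adjusted p = 0.0485, and 0.0761 without nondiabetic vehicle replicate 3). The hour of collection is not in the labels, and its part in the clock results was not tested. Per1 is also on the list of glucocorticoid-responsive genes, of which 5 of 14 rose and 1 fell, beside 15.4% and 12.3% of all genes. Without replicates 5 and 6, 3 of the 14 rose and none fell, beside 11.7% and 12.4% of all genes. With all libraries Fkbp5, a cochaperone of the receptor, was at 0.88 (adjusted p = 0.0174, and 0.0921 without replicates 5 and 6). The metallothionein Mt1 was at 0.95 (adjusted p = 0.0068). Sgk1 (0.71, adjusted p = 0.112) and Tsc22d3 (0.38, adjusted p = 0.17) did not pass.

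**Figure D2:**
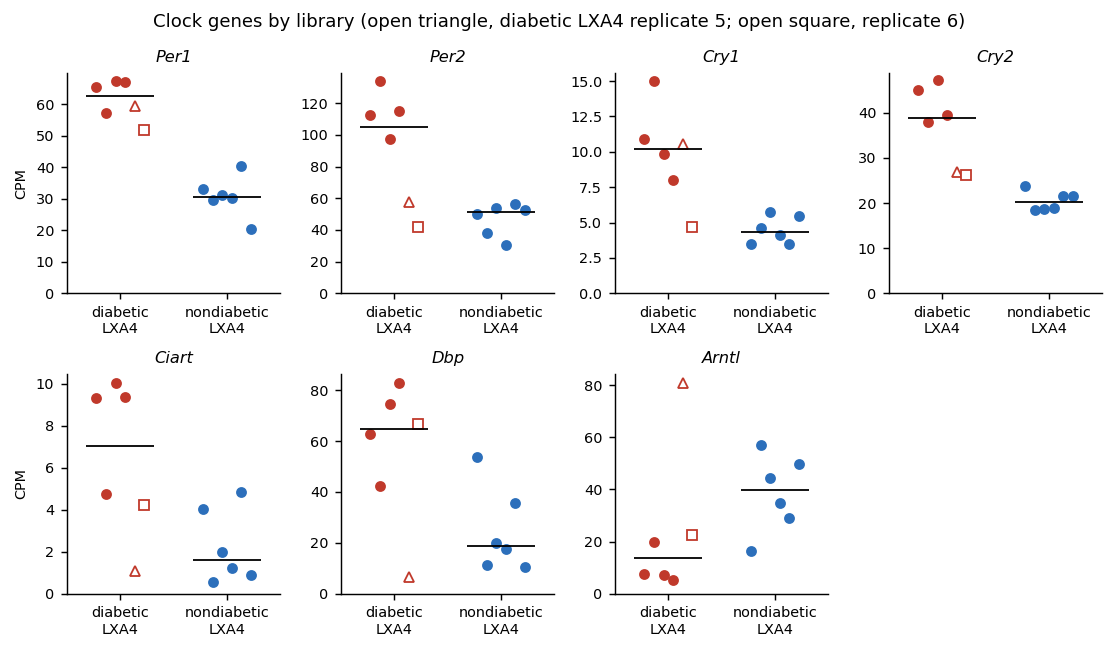
Level of 7 clock genes in each LXA4 library, in CPM on linear axes that start at 0, with diabetic LXA4 at the left and nondiabetic LXA4 at the right. Each point is a library, bars are medians, the open triangle is diabetic replicate 5 and the open square is diabetic replicate 6. Per1 and Cry2 separate the groups, and in Arntl replicate 5, at 80.7 CPM, lies above every other library.

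The windows of Ciart and Cry1 are printed, chosen after their values were seen, because both rose and both hold the E-box CACGTG that Clock and Arntl bind. They are RefSeq windows on the minus strand of chr3:95882179-95882478 and chr10:85185005-85185304 (GRCm38.p6), with each E-box in capitals.
Ciart: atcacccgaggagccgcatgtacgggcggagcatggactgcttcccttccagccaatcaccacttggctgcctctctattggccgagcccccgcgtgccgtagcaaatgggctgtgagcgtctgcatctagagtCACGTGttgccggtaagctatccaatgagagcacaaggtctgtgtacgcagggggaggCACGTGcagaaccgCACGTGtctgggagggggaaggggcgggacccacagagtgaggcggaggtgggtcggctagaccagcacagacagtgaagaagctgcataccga
Cry1: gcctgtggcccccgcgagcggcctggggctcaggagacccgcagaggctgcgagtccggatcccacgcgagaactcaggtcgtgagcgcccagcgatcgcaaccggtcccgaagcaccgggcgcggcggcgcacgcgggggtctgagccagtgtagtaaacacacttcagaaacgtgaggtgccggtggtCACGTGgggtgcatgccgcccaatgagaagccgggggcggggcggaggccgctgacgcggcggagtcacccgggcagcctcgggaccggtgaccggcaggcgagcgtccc
Ciart holds 3 E-boxes and Cry1 holds 1. CACGTG reads alike on both strands and lies in 5 of the 16 measured clock genes with a window (Per1, Cry1, Tef, Bhlhe41 and Ciart), all 5 of which rose, against 7.15% of all 32851 windows. Of the 11 without it 5 rose and 1 fell. Per2 and Bhlhe40 are not among the windows. An absent match says only that these letters are not in the window.

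Genes of protein folding in the endoplasmic reticulum (ER) fell. When unfolded proteins accumulate there, the sensors Ern1, Eif2ak3 and Atf6 raise chaperones such as Hspa5 (BiP) through the ER stress response element, in which a CCAAT box and CCACG stand 9 bases apart. Of 28 genes of this response 13 fell and 2 rose (median -0.36), beside 12.3% and 15.4% of all genes. Without diabetic replicate 6, 17 fell and 1 rose (median -0.48), beside 14.7% and 16% of all genes. Calr, the lectin chaperone calreticulin, was at 189, 225 and 302 CPM in diabetic LXA4 kidneys, against 396, 489.8 and 538 CPM in nondiabetic LXA4 kidneys (-1.03, SE 0.14, adjusted p = 6.29e-06). Dnajc3, a cochaperone that inhibits the kinase Eif2ak3, was at 107, 117 and 132 CPM, against 149, 183 and 194 CPM (-0.60, SE 0.08, adjusted p = 1.88e-06). Hsp90b1, the ER member of the Hsp90 family, was at 159.8, 176 and 242 CPM, against 260.3, 368 and 413 CPM (-0.93, SE 0.15, adjusted p = 5.98e-05). All 3 were lower in each diabetic library than in any nondiabetic one.

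Hspa5 was at 156, 209 and 484 CPM in diabetic LXA4 kidneys, against 356, 508 and 622 CPM in nondiabetic LXA4 kidneys. The highest diabetic value was that of replicate 6, at 484 CPM, and the log2 difference was -0.91 with it and -1.16 without it (adjusted p = 0.00872 and 0.00101). Canx, calnexin (-0.57, adjusted p = 1.82e-05), and the disulfide isomerases Pdia4 (-0.88, adjusted p = 1.93e-05) and Pdia6 (-0.76, adjusted p = 0.000574) fell with it. The pseudokinase Trib3 rose (1.06, adjusted p = 0.00541), while Ddit3, the proapoptotic factor CHOP (0.14, adjusted p = 0.561), and the sensor Ern1 (0.04, adjusted p = 0.646) did not pass. Under vehicle 3 of the 28 fell (1 without nondiabetic vehicle replicate 3) and under benzo-LXA4 4 fell, with list medians of -0.30 and -0.25, and no member passed the test of the difference between LXA4 and vehicle.

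**Figure D3:**
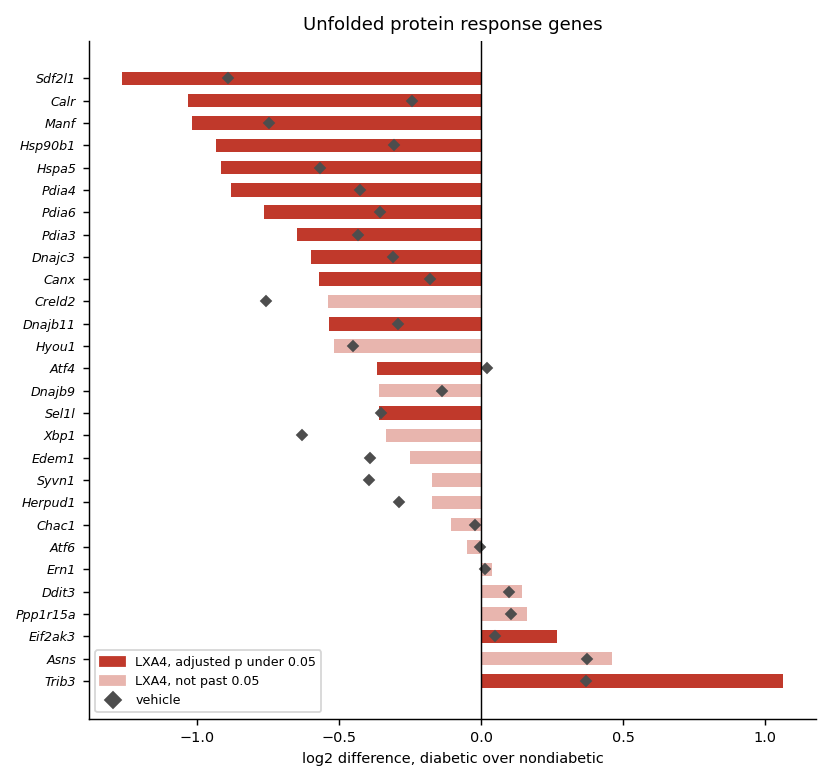
Log2 difference, diabetic over nondiabetic, of 28 unfolded protein response genes. Bars are the LXA4 comparison, dark where the adjusted p was under 0.05, and diamonds are the vehicle comparison. Sdf2l1 and Calr have the lowest values under LXA4, at -1.26 and -1.03.

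The windows of Dnajc3 and Calr, the fallen genes with the lowest p on this list, are printed with their ER stress response element in capitals. They lie on the plus strand of chr14:118937682-118937981 and the minus strand of chr8:84846882-84847181 (RefSeq, GRCm38.p6).
Dnajc3: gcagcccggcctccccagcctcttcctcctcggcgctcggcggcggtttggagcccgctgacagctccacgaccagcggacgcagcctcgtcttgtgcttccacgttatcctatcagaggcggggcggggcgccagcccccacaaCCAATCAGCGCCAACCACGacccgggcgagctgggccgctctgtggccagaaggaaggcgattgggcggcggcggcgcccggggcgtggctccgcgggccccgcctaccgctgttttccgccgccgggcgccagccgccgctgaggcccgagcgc
Calr: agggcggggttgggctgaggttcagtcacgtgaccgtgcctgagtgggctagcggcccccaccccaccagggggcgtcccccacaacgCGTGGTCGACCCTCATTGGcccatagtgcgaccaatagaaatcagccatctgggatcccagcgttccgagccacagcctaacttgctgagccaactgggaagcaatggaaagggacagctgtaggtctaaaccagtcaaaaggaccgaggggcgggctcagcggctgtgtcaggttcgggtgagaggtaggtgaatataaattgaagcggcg
The element, CCAAT and CCACG with 9 bases of any kind between them, was searched on both strands. It begins 105 bases before the start of Dnajc3 and, on the opposite strand, 162 bases before that of Calr. It lies in 8 of the 25 genes of the list with a window (Hspa5, Hsp90b1, Pdia6, Calr, Canx, Dnajc3, Creld2 and Syvn1), against 39 of all 32851 windows (0.119%). Of these 8 genes 6 fell, and 7 did so without diabetic replicate 6, when Creld2 was at -0.80 (adjusted p = 0.0342). Of the 17 without it 6 fell and 2 rose. CCAAT alone lies in 20 of the 25 and 37.4% of all windows, and the element contains it. Atf6, Manf and Hyou1 are not among the windows.

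Proximal tubule genes fell, and with them much of the tubule's metabolism. Of 33 proximal tubule markers 20 fell and none rose (median -0.53), beside 12.3% lower and 15.4% higher of all genes. Of the 16 loop and distal tubule, 15 collecting duct and 17 podocyte markers 1, 0 and 0 fell, and 1, 1 and 4 rose. In bulk tissue, fewer cells of a type and less RNA per cell cannot be told apart. Lrp2, megalin, the receptor that retrieves filtered protein, was at 3541, 4060.1 and 5352 CPM in diabetic LXA4 kidneys, against 5835, 6090.1 and 6793 CPM in nondiabetic LXA4 kidneys, without overlap (-0.56, SE 0.12, adjusted p = 0.00125). The phosphate transporter Slc34a3 (-1.14, adjusted p = 0.00152), the creatine precursor enzyme Gatm (-1.04, adjusted p = 0.00247), the brush border Ggt1 (-0.57, adjusted p = 0.00115) and Hnf4a, a transcription factor of tubule identity (-0.41, adjusted p = 0.00337), fell too. Slc5a2, the glucose transporter SGLT2, was at 184, 217 and 555 CPM, against 328, 394 and 449 CPM. Replicate 6 was the high one at 555 CPM, so that the gene did not pass with it (-0.53, adjusted p = 0.101) and passed without it (-0.85, adjusted p = 0.00382). Pck1, of gluconeogenesis, did not pass (-0.29, adjusted p = 0.432).

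Genes that are higher in male than in female mouse kidneys had the lowest median of the lists with 9 or more measured members. Of 12 measured 10 fell (median -0.93), beside 1 higher and 1 lower among 9 female-biased genes. Over all genes 12.3% fell and 15.4% rose. Odc1, the polyamine enzyme ornithine decarboxylase, was at 184, 259.6 and 454 CPM in diabetic LXA4 kidneys, against 474, 705 and 825 CPM in nondiabetic LXA4 kidneys (-1.22, SE 0.32, adjusted p = 0.00519). Kap, the androgen-regulated kidney protein (adjusted p = 0.0102), Cyp4b1 (-1.12, adjusted p = 0.00198) and the amino acid transporter Slc7a13 (-0.93, adjusted p = 0.0013) also fell without overlap. Several of these are proximal tubule genes, and Kap and Slc7a13 are on both lists.

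Oxidative phosphorylation genes of the nucleus fell by small and even amounts. Of 50 measured 27 fell and 1, Cox6a1, rose (median -0.31), and without diabetic replicate 6, 35 fell and none rose. Over all genes, the background for each list in this paragraph, 12.3% fell and 15.4% rose (14.7% and 16% without that replicate). Under vehicle none passed (median -0.17, and -0.07 without nondiabetic vehicle replicate 3). No member passed the test of the difference between LXA4 and vehicle. Sdha of complex II (-0.41, adjusted p = 0.00114) was among the falls. Of 34 fatty acid oxidation genes 9 fell, among them the acyl-CoA dehydrogenase Acadm (-0.48, adjusted p = 0.00346) and the electron carrier enzyme Etfdh (-0.45, adjusted p = 0.00245). Of 24 cholesterol synthesis genes 12 fell and 1 rose (median -0.45). Cyp51, a sterol demethylase, was at 76.6, 103 and 128 CPM in diabetic LXA4 kidneys, against 139.8, 184 and 202 CPM in nondiabetic LXA4 kidneys, with no overlap (-0.76, SE 0.13, adjusted p = 0.000105), and Idi1, the isopentenyl diphosphate isomerase, fell further (-1.03, adjusted p = 0.000711). Of 30 NRF2 targets 8 fell and 2 rose. Prdx1, a peroxiredoxin (-0.72, adjusted p = 0.00122), and Gclm, of glutathione synthesis (-0.43, adjusted p = 0.00489), were among the falls, and Ephx1 was among the rises.

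Sugar metabolism genes moved both ways. Of 19 glycolytic and glucose-responsive genes 5 fell and 2 rose, beside 12.3% and 15.4% of all genes. Ldha, lactate dehydrogenase, fell (-0.54, adjusted p = 0.000199), and Hk1, a hexokinase, rose (0.59, adjusted p = 0.025). Among 11 polyol, fructose and inositol genes 4 fell. Miox, the proximal tubule enzyme that opens the ring of myo-inositol, was at 425, 509 and 891 CPM in diabetic LXA4 kidneys, against 853, 905 and 1097 CPM in nondiabetic LXA4 kidneys. Without replicate 6, at 891 CPM, the groups did not overlap (-0.89, adjusted p = 0.000289). Khk, which phosphorylates fructose (-0.42, adjusted p = 0.0373), fell as well. Of 18 glucose transport and gluconeogenesis genes 3 rose and 2 fell, near the shares of all genes. The urate and hexose carrier Slc2a9 (0.62, adjusted p = 0.000876) and the transcription factor Foxo3 (0.68, adjusted p = 0.00119) rose and Fbp1, fructose bisphosphatase, fell (-0.39, adjusted p = 0.0283).

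Genes of tryptophan breakdown moved in both directions. Kynurenine is passed by Kmo and Kynu towards NAD, and Acmsd diverts the last intermediate away from it. Kynu, kynureninase, was at 8.74, 43.6 and 81.8 CPM in diabetic LXA4 kidneys, against 7.49, 12.3 and 17.5 CPM in nondiabetic LXA4 kidneys. The low diabetic value was that of replicate 6, and the log2 difference was 1.92 (SE 0.41, adjusted p = 0.00114). Acmsd (chr1:127729413-127767978) was at 29.5, 52.6 and 75.7 CPM, against 105, 146 and 196 CPM, with no overlap (-1.48, SE 0.22, adjusted p = 2.11e-05). Kmo, the kynurenine hydroxylase (-0.66, adjusted p = 0.00596), Qprt, which makes nicotinic acid mononucleotide (-0.42, adjusted p = 0.00141), and Aadat, a kynurenine aminotransferase (-0.66, adjusted p = 0.0092), fell, whereas Kyat1, another aminotransferase, rose (0.41, adjusted p = 0.0106). In all 5 of the 15 genes of this list fell and 2 rose, beside 12.3% and 15.4% of all genes.

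**Figure D4:**
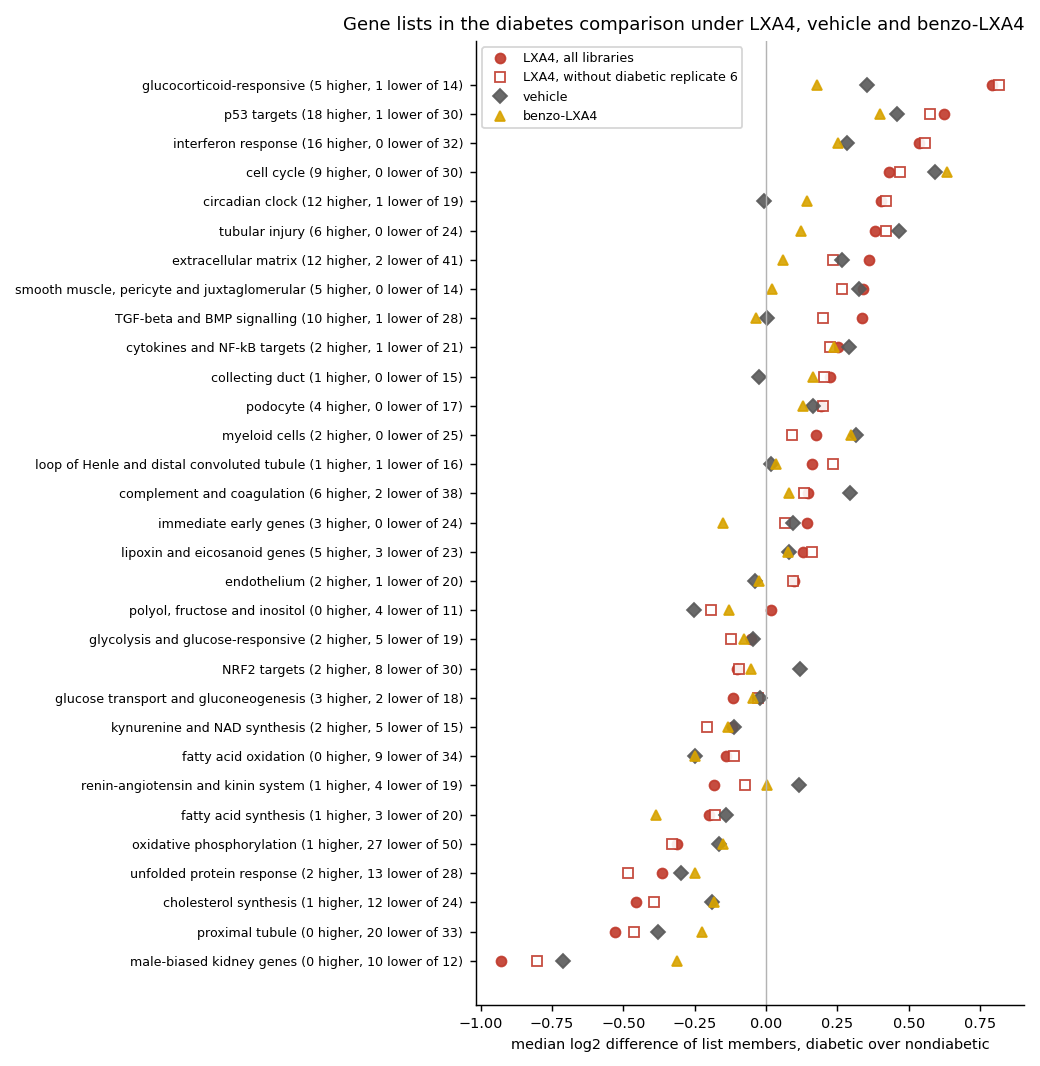
Median log2 difference, diabetic over nondiabetic, of each gene list with 10 or more measured members, under LXA4 with all libraries (filled circles), under LXA4 without diabetic replicate 6 (open squares), under vehicle (diamonds) and under benzo-LXA4 (triangles). Counts beside each list are the members that passed higher and lower under LXA4. Male-biased genes lie lowest under LXA4, at -0.93, and glucocorticoid-responsive genes lie highest, at 0.79.

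The same contrast could be set beside diabetes without LXA4, since the vehicle and benzo-LXA4 groups share no library with it. Under vehicle 881 genes passed (5.6%, 541 higher or 3.44% and 340 lower or 2.16%) and under benzo-LXA4 638 (4.06%, 442 higher or 2.81% and 196 lower or 1.25%), so that LXA4 gave the longest list of the 3. Nondiabetic vehicle replicate 3 stood apart within its group, with 10086698 counted reads and 17.7% of them on structural RNA genes, against 18009386 to 33541143 reads and 1.97% to 4.62% in the other 11 vehicle libraries. Without it 646 genes passed under vehicle (4.11%, 420 higher or 2.67% and 226 lower or 1.44%), of which 411 were also LXA4 calls, 408 in the same direction. The spread of the log2 differences was also wider, with an interquartile range of 0.49 under LXA4 (0.43 without diabetic replicate 6), 0.31 under vehicle and 0.27 under benzo-LXA4. The difference between these counts was not tested. Of the LXA4 calls 536 were also called under vehicle, which is 12.3% of the LXA4 calls and 60.8% of the vehicle calls, and 530 of them had the same direction. With benzo-LXA4 449 were shared (10.3% of LXA4 calls and 70.4% of benzo-LXA4 calls), 448 in the same direction. Of all LXA4 calls 81.7% had the same sign under vehicle, beside 65.1% of all genes.

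**Figure D5:**
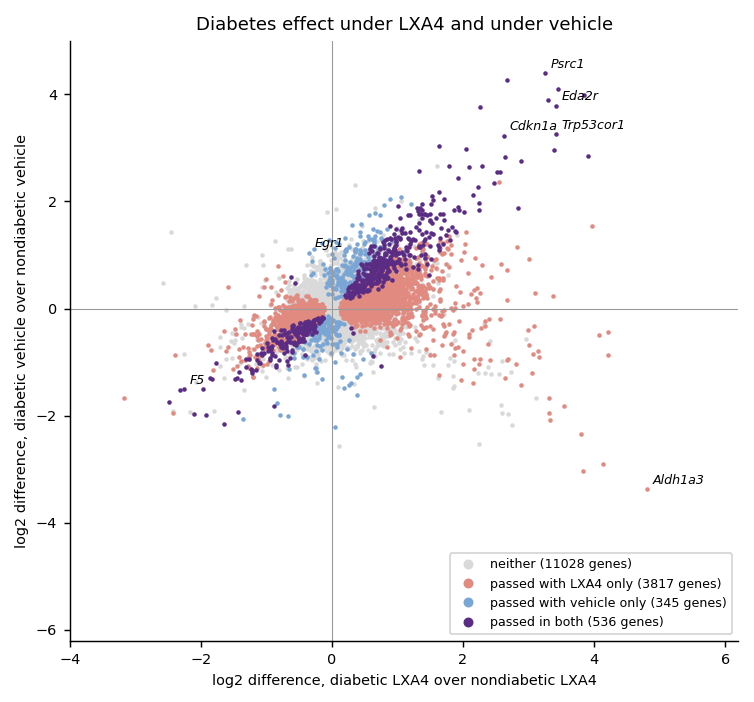
Log2 difference of each of 15726 genes, diabetic over nondiabetic, under LXA4 (horizontal axis) and under vehicle (vertical axis). Colours mark the 3817 genes that passed with LXA4 alone, the 345 that passed with vehicle alone and the 536 that passed in both. The p53 targets Cdkn1a, Eda2r, Trp53cor1 and Psrc1 lie high on both axes, and Aldh1a3 lies high under LXA4 and low under vehicle.

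Tested directly, the effect of diabetes differed between LXA4 and vehicle in 39 genes (0.248%), 33 with the larger value under LXA4 (0.21%) and 6 with the smaller (0.0382%). Without diabetic LXA4 replicate 6 there were 59 (0.375%), 47 with the larger value (0.299%) and 12 with the smaller (0.0763%). At an unadjusted p under 0.05 there were 2592 (16.5%). Kdm4b, a demethylase of histone H3 lysine 9, was at 48.7, 50.5 and 52.7 CPM in diabetic LXA4 kidneys, against 33.8, 35.6 and 38.7 CPM in nondiabetic LXA4 kidneys, and at 34.9, 43.5 and 48.3 CPM in diabetic vehicle kidneys, against 40.8, 42.4 and 52.5 CPM in nondiabetic vehicle kidneys. It separated the LXA4 groups and not the vehicle groups, and the difference of the effects was 0.56 (SE 0.10, adjusted p = 0.0191). Lamb3, the laminin beta 3 chain, was at 12.1, 16.4 and 24.3 CPM in diabetic LXA4 kidneys, against 5.43, 8.55 and 10.8 CPM in nondiabetic LXA4 kidneys, and at 6.95, 8.95 and 11.4 CPM in diabetic vehicle kidneys, against 8.81, 11.2 and 17.97 CPM in nondiabetic vehicle kidneys (1.44, SE 0.26, adjusted p = 0.0191).

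Ddc, the aromatic amino acid decarboxylase that makes dopamine in the proximal tubule, differed in sign between LXA4 and vehicle. It was at 43.8, 51.7 and 63.1 CPM in diabetic LXA4 kidneys, against 69.5, 79.9 and 88.0 CPM in nondiabetic LXA4 kidneys, and at 64.5, 77.5 and 101 CPM in diabetic vehicle kidneys, against 38.0, 57.3 and 79.2 CPM in nondiabetic vehicle kidneys. It passed lower under LXA4 (-0.57, adjusted p = 0.00388) and higher under vehicle (0.48, adjusted p = 0.0359, and 0.0642 without nondiabetic vehicle replicate 3), and the difference was -1.05 (SE 0.20, adjusted p = 0.0212). Cldn1, a tight junction claudin, was at 6.14, 11.2 and 16.4 CPM in diabetic LXA4 kidneys, against 10.0, 10.8 and 14.9 CPM in nondiabetic LXA4 kidneys, and at 17.0, 20.7 and 22.3 CPM in diabetic vehicle kidneys, against 5.72, 9.78 and 11.5 CPM in nondiabetic vehicle kidneys. There the vehicle groups were apart and the LXA4 groups were not (-1.07, SE 0.22, adjusted p = 0.0323). The kinase Map3k9 (0.61, adjusted p = 0.0257), the scaffold Dlg5 (0.53, adjusted p = 0.0226), the small modifier Sumo3 (-0.58, adjusted p = 0.0257) and the transcriptional coactivator Eya2 (0.66, adjusted p = 0.0286) were also among the 10 with the lowest p that have a settled symbol.

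The count of 39 moved with single libraries. It was 24 without nondiabetic vehicle replicate 3 and 129 without that library and diabetic LXA4 replicate 6 together. It was 8 without diabetic LXA4 replicate 4 and 13, 7, 10, 6 and 13 without nondiabetic LXA4 replicates 1, 2, 3, 4 and 6, whereas it was 67, 63, 69, 76 and 59 without diabetic LXA4 replicates 1, 2, 3, 5 and 6, 30 without nondiabetic LXA4 replicate 5, and 0 when the 4 groups were fitted without the benzo-LXA4 libraries. With library totals in place of the trimmed mean scaling 1 gene passed, lower, and the median of the differences over all genes was -0.10 in place of 0.03. Kdm4b, Lamb3 and Ddc passed whichever single LXA4 library was left out. Between LXA4 and benzo-LXA4 no gene passed the test of the difference in edgeR, with 1463 (9.3%) at an unadjusted p under 0.05, while DESeq2 gave 3 and limma with quality weights 1. For Kdm4b that difference was 0.21 and for Ddc it was -0.60, with an adjusted p of 0.532 and 0.463.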

How the data were processed

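Gene counts came from rRNA-depleted, directional libraries of 200 ng total RNA from kidney cortex, per the labels' protocols. The authors deposited 1 table of whole read counts per gene for 36 libraries, with 15730 genes. The submitters' processing notes name bcl2fastq 2.17.1.14, STAR, featureCounts and build GRCm38, without the strand setting, so reads of a gene and an antisense partner cannot be told apart. The 15730 gene identifiers were matched to GENCODE M21, with 15697 found, and promoter windows and their coordinates came from RefSeq (GRCm38.p6). The lowest total of any gene was 370 reads, so low genes had been removed before deposit.

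All 36 libraries were fitted with 1 mean per group in edgeR 4.0.16 (quasi-likelihood test, trimmed mean of M-values, filterByExpr, 15726 genes kept) under R 4.3.3, and p-values were adjusted by Benjamini-Hochberg over all genes. Standard errors were derived from the F statistic. Alternatives were each of the 12 LXA4 libraries left out, the compared groups fitted alone, DESeq2 1.42.0 and its size factors, limma 3.58.1 with quality weights, library totals, other filters, structural RNA genes left out and a replicate block. Named genes are a panel of 7 lipoxin and Egr1 genes, the 12 highest and 12 lowest log2 differences among genes at a mean of 1 CPM or more that passed with and without diabetic LXA4 replicate 6, up to 6 such members per list, and up to 10 genes per difference of effects. Dbp, Arntl, Ciart, Hspa5, Phlda3, Slc5a2, Nr1d1 and the other list members quoted were named after their values were seen. The 39 gene lists, the members and the tests were chosen with earlier results of these data known. Some genes picked by these rules are not reported here. Intervals are 95% intervals.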

Additional observations from a re-analysis of the deposited data

Results flagged for a closer look

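With 6 libraries a group, the gap between the most extreme library and its neighbour was set against Dixon's 95% limit, which chance passes in about 5% of groups. Diabetic LXA4 replicate 6 passed it on the share of structural RNA (56.9%), the share of mitochondrial ribosomal RNA (0.394%), Eda2r (0.945 CPM), Phlda3 (51.9 CPM) and Slc5a2 (554.7 CPM). Diabetic LXA4 replicate 5 passed it on the summed urothelium and inner medulla markers (137.9 CPM), the summed interferon genes (790.6 CPM), Aldh1a3 (89.0 CPM), Psca (14.8 CPM), Krt18 (24.1 CPM), Arntl (80.7 CPM), Vwf (17.9 CPM) and Irf7 (44.0 CPM). These genes belong to different lists and are high in 1 library of 6. Diabetic LXA4 replicate 2 was high in Lrp2 (5352 CPM). Nondiabetic LXA4 replicate 2 was high in Psca (1.62 CPM), nondiabetic LXA4 replicate 3 in structural RNA (6.81%) and nondiabetic LXA4 replicate 4 in Cldn1 (14.9 CPM).

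The effect of diabetes differed between LXA4 and vehicle, by edgeR's test of the difference, in Kdm4b (0.56), Lamb3 (1.44), Per2 (1.54), Dlg5 (0.53), Map3k9 (0.61) and Eya2 (0.66), each with the larger value under LXA4, and in Ddc (-1.05), Sumo3 (-0.58) and Cldn1 (-1.07), each with the smaller. Aldh1a3 differed by 8.17, with diabetic LXA4 replicate 5 at 89.0 CPM and a nondiabetic vehicle library at 46.3 CPM, and by 3.89 without that replicate, when it did not pass.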

How the results depend on the processing

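The count of genes that passed between diabetic LXA4 and nondiabetic LXA4 kidneys was 4353. It was 2338 with the 2 groups fitted alone (5890 without diabetic replicate 6 in that fit), 2272 with library totals and 6954 with limma's quality weights, and it stayed within 1.5 times under the other alternatives run, from 3446 to 4854 with 1 library left out. For the difference of the effect between LXA4 and vehicle the count of 39 became 0 with the 4 groups alone, 1 with library totals, 257 in DESeq2, 211 with limma's quality weights, 80 at a mean of 5 CPM or more, 95 without diabetic LXA4 replicates 5 and 6, 129 without diabetic LXA4 replicate 6 and nondiabetic vehicle replicate 3, and 6 to 76 with 1 library left out. For the difference between LXA4 and benzo-LXA4 the count of 0 became 1 with the 4 groups alone, 3 in DESeq2 and 1 with limma's quality weights. The settings that drop 2 libraries, or nondiabetic vehicle replicate 3, were chosen after seeing the data. The causes were not tested.

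The main fit did not treat libraries of the same replicate number as pairs, and the labels state no pairing. The correlations below are of deviations from group means, and low values cannot show that a number marks no shared batch. Same-numbered libraries correlated between -0.0988 and 0.185, 1 of 6 over 0.1, and no diabetic library correlated best with its own number. With the replicate block 4100 genes passed in the main contrast and 9 in the difference between LXA4 and vehicle.

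Of 203 genes named by the rule or after their values were seen, 181 passed, 114 did so under every alternative run on them and 148 survived the loss of any 1 library. With 1 library left out the log2 difference ran from -0.16 to 0.0470 in Nab2, -0.0091 to 0.74 in mt-Nd5 and -0.0810 to 0.15 in Cldn1, none of which passed with all libraries, and Nab2 was at 0.0339 at a mean of 5 CPM or more. List medians kept their sign with DESeq2's size factors and with library totals, except the polyol list (0.02 and -0.17 with library totals). With library totals the counts of rises were lower or equal in every list. Interferon genes had 7 of 32 higher, matrix genes 6 of 41 and clock genes 7 of 19. Falls went up to 15 of 28 in the unfolded protein response, against 13, and to 3 of 38 in complement and coagulation, against 2. They went down to 19 of 50 in oxidative phosphorylation, against 27, and to 17 of 33 in proximal tubule, against 20. Cholesterol synthesis had 10 of 24 lower, against 12, and male-biased genes 8 of 12, against 10. Over all genes 1167 fell, against 1938. Replicate 6 has the fewest reads, so low genes are measured least precisely there.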

Other observations

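Fold changes varied with gene length, more so without diabetic LXA4 replicate 6. Protein-coding genes were placed in 5 equal classes by exon length, and without diabetic LXA4 replicate 6 the median log2 difference was -0.11 in the shortest class (median 1794 bases) and -0.04, 0.02, 0.05 and 0.09 in the following ones, up to a median of 9986 bases. With all libraries the medians were -0.03, 0.01, 0.06, 0.06 and 0.06. Without that replicate, of the shortest class 8.18% of genes rose and 23.7% fell, and of the longest 23.8% rose and 7.90% fell. Under vehicle the medians were -0.08 and 0.03 in the shortest and the longest class, and under benzo-LXA4 -0.07 and 0.01. The lists differ in length, with a median of 1950.0 bases for oxidative phosphorylation genes and 6943 bases for matrix genes. The part of gene length in the list counts was not tested.

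Markers of other tissues also differed. Of 7 liver and pancreas markers measured 3 fell, among them the thyroxine carrier Ttr (-0.98, adjusted p = 0.039), and the summed level was 50.8, 66.9 and 85.7 CPM in diabetic LXA4 kidneys and 102, 109 and 136 CPM in nondiabetic LXA4 kidneys. The erythroid genes summed to 78.2, 157 and 305 CPM, against 262, 277 and 371 CPM, and the globin Hbb-bs passed with all libraries (-0.72, adjusted p = 0.0485) and not without replicate 6 (adjusted p = 0.105). Scnn1b, a subunit of the collecting duct sodium channel, rose (0.39, adjusted p = 0.00689), and so did Wnk4, a kinase of the distal convoluted tubule (0.60, adjusted p = 0.00123). Each was the only rise on its list, 1 of 15 collecting duct and 1 of 16 loop and distal tubule markers. Both shares are below the 15.4% of all genes. mt-Nd6, encoded on the opposite strand to the other mitochondrial mRNAs, was at 2652 CPM in diabetic LXA4 replicate 6, against 160.3 to 308.6 CPM in the other diabetic LXA4 libraries and 167, 193 and 249 CPM in nondiabetic LXA4 kidneys, and passed with that library and not without it (adjusted p = 0.27).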
